A study of Mus musculus with 4 samples.

Results

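At 606 places beside protein-coding genes, both libraries numbered 2 of a retinal endothelial ATAC-seq series listed an open-chromatin peak and both libraries numbered 1 listed none. These regions were selected on the measured peak lists themselves. The peaks of all 4 lists were merged where they overlapped or touched, on the 19 autosomes and X, and a region was kept if Zeb1-CKO 2 and control 2 held it, neither Zeb1-CKO 1 nor control 1 did, and it lay within 1 kb of either end of a protein-coding gene (a gene end). The rule gave 1936 regions held by replicate 2 only, which was 7.66% of the 25263 merged regions, and 606 of them (31.3%) lay at gene ends. The 606 were 6.39% of the 9483 merged regions at gene ends. They lay beside 680 genes, 3.14% of the 21631 protein-coding genes and 6.48% of the 10499 with a gene-end peak in any library. Because the peak lists chose the regions, the presence of a peak in replicate 2 and its absence in replicate 1 is a description and was not tested.

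ATAC-seq marks open chromatin with a transposase that inserts adapters where DNA is not wrapped up, and a peak is a stretch with more insertions than its surroundings. The groups were Zeb1-CKO (libraries 1 and 2) and control (libraries 1 and 2), all from endothelial cells sorted out of the retinas of C57BL/6 mice labelled P16, with 2000 cells a library. The Zeb1-CKO titles carry a genotype label that reads Zeb1 knockdown, and Zeb1 is a zinc-finger repressor known for silencing epithelial genes. The driver of the Zeb1 allele and the marker used for sorting are not given in the sources used here, nor is it stated whether each library had its own animals or what a shared replicate number stands for. The lists held 19886 peaks in Zeb1-CKO 2, 13672 in control 2, 13689 in Zeb1-CKO 1 and 7608 in control 1, and read depth is unknown. Of the endothelial genes looked at, Cdh5 (VE-cadherin) and Tie1 were open at a gene end in every library, Kdr in all but control 1, and Pecam1 and Erg had none at a gene end. Elsewhere in the gene or within 10 kb of it, Erg had peaks in every library and Pecam1 in all but control 1. A gene-end peak at Zeb1 was listed in Zeb1-CKO 2, control 2 and Zeb1-CKO 1 and not in control 1, and peak lists do not check the genotype.

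Most accessible sites close to genes are promoters, the stretches around transcription starts where the general transcription machinery assembles. Broadly used genes tend to have promoters rich in CpG dinucleotides that are open in most cell types, whereas cell-type genes often have CpG-poor promoters that open where their own factors are present. In rod photoreceptors, the light-sensing neurons that make up most of the retina's cells, such factors include the homeodomain protein CRX, which binds a TAATCC core, and the leucine-zipper protein NRL, whose sites carry the letters TGCTGA. Interferon-induced genes carry an element bound by interferon regulatory and STAT factors, whose core reads TTCNNTTTC.

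Promoters of 3 kinds under replicate 2 regions are shown by the 150 bases before the annotated start, 5′ to 3′ on the gene's own strand (RefSeq, GRCm38.p6). The first 4 belong to photoreceptor genes, with TAATCC or its reverse complement GGATTA and TGCTGA or TCAGCA in capitals; GGATTA and TAATCC can overlap each other. The stretches are chr3:30746143-30746292 (plus strand) for Samd7, chr4:156255343-156255492 (minus) for Samd11, chr5:108388223-108388372 (plus) for Pde6b and chr8:13404931-13405080 (plus) for Grk1.
Samd7: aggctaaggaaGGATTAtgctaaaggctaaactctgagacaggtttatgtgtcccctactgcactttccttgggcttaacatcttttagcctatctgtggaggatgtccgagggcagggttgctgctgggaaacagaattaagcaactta
Samd11: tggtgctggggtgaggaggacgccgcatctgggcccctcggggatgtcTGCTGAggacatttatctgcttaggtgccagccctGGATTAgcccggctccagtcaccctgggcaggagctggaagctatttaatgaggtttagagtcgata
Pde6b: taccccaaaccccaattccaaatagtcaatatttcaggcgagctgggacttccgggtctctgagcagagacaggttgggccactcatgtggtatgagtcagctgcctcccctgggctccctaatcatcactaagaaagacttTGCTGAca
Grk1: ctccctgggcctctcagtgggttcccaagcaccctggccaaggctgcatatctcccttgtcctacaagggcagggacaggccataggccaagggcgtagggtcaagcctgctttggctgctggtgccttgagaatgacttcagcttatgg
Samd7 and Samd11 each hold the CRX core, Samd11 and Pde6b hold the NRL letters, and the Grk1 stretch shown holds neither. These 4 are a selection. Of the other photoreceptor promoters under replicate 2 regions, Neurod1 holds the NRL letters, and Cdhr1 and Prph2 hold neither motif.

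The next 3 are promoters of interferon-induced genes, with TTCNNTTTC or GAAANNGAA in capitals; matches may overlap each other. They are chr5:120812515-120812664 (minus) for Oas1c, chr11:48871421-48871570 (minus) for Irgm1 and chr12:26456453-26456602 (minus) for Rsad2.
Oas1c: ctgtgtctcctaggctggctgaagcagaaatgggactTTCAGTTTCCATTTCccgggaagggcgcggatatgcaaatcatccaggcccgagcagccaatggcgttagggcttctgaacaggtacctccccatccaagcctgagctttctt
Irgm1: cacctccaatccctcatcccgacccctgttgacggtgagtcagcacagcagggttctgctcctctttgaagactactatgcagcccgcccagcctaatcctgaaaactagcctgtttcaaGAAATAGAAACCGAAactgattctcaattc
Rsad2: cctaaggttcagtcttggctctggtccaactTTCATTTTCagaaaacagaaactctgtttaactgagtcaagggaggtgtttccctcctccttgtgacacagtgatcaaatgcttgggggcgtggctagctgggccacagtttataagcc
These are the 3 of 10 interferon-gene promoters under replicate 2 regions that hold the core and were picked for it, while the other 7 do not hold it. In Oas1c and Irgm1 overlapping matches run together.

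The last 3 come from the best-ranked regions, beside genes not tied to a single cell type, with the ETS-factor site CCGGAAG, the GC box GGGCGG, the NF-Y site CCAAT and the NRF1 site GCATGCGC, on either strand, in capitals; none of these 4 contains another. They are chr11:64079473-64079622 (minus) for Cox10, chr9:36797335-36797484 (minus) for Ei24 and chr17:33394638-33394787 (minus) for Zfp101.
Cox10: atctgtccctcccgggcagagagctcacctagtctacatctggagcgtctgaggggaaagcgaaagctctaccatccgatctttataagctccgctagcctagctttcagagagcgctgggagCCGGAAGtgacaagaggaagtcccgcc
Ei24: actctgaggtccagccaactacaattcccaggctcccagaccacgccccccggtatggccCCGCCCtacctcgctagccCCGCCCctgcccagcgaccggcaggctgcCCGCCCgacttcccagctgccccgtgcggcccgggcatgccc
Zfp101: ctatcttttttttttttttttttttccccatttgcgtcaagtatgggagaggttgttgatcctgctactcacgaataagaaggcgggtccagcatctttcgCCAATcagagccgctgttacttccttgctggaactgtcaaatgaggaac
Cox10 shows an ETS site, Ei24 several GC boxes and Zfp101 an NF-Y site. Not every best-ranked promoter has such a match, and the same stretch at Fam149a holds none of these motifs. A match is a string of letters and no evidence of binding.

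The libraries shared gene-end regions unequally. Regions in all 4 libraries numbered 3823, those missing only from control 1, the shortest list, 2421, and those held by both Zeb1-CKO libraries and neither control (Zeb1-CKO-only) 764. The 606 replicate 2 regions were the next most frequent pattern shared by a pair of libraries, and the converse pattern, both replicate 1 libraries and neither replicate 2 library, had 13. The crossed pairs gave 110 regions for control 2 with Zeb1-CKO 1 and 15 for Zeb1-CKO 2 with control 1. Longer lists share more regions, and replicate 2 has the longer list in each group. Within a group, list length and replicate number therefore cannot be told apart. Across groups, control 2 (13672 peaks) and Zeb1-CKO 1 (13689) had lists of nearly equal length but differed in group as well as replicate number. The part of list length was not tested.

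**Figure D1:**
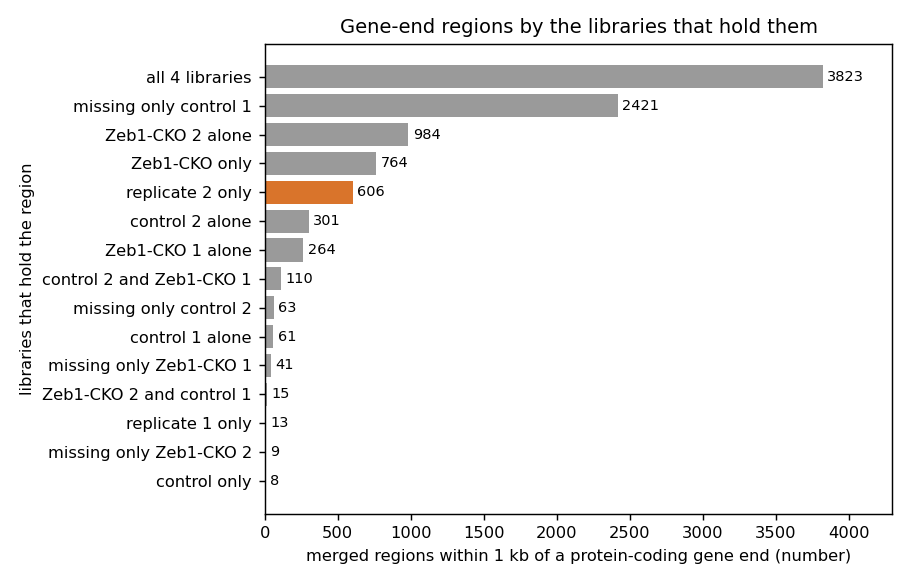
Number of merged regions at protein-coding gene ends (horizontal axis) for each set of libraries that holds them (vertical axis). The replicate 2 regions, in orange, number 606, against 764 Zeb1-CKO-only regions, 3823 in all 4 libraries and 13 held by replicate 1 only.

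The replicate 2 regions were narrow and of middling to low rank. Their median merged width was 380.5 bp (quartiles 307.25 to 570 bp, longest 1870 bp), against 523 bp for Zeb1-CKO-only regions, 583 bp for those missing only from control 1 and 705 bp for those in all 4. When the peaks of a list are ordered from the strongest (percentile 0) to the weakest (100) by −log10 p, the median replicate 2 region stood at percentile 63.1 in Zeb1-CKO 2 (quartiles 43.5 to 78.2) and 66.0 in control 2 (46.7 to 81.5). In the Zeb1-CKO 2 list the median was 64.1 for Zeb1-CKO-only regions, 39.7 for those missing only from control 1 and 14.6 for those in all 4. Fold enrichment, the authors' own value per peak over its library's background, had a median of 4.60 in Zeb1-CKO 2 and 4.70 in control 2. A −log10 q of at least 3 was reached by 346 regions in Zeb1-CKO 2, by 336 in control 2 and by 236 (38.9%) in both. Only 5 regions were among the strongest 25% of peaks in both lists, while 107 were beyond percentile 75 in both.

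Each replicate 2 region consisted of exactly 1 peak of each replicate 2 library, in 606 of 606 cases. The pair shared a median of 97.0% of the smaller peak, and in 252 regions (41.6%) the smaller peak lay wholly inside the larger. The peak was wider in Zeb1-CKO 2 at 379 regions (62.5%, exact 95% binomial interval 58.6% to 66.4%), wider in control 2 at 211 and equal at 16, with median covered lengths of 326.5 bp in Zeb1-CKO 2 and 270.5 bp in control 2. Peaks of Zeb1-CKO 2 were wider in general: at regions in all 4 libraries the medians were 564 bp in Zeb1-CKO 2 and 457 bp in control 2. By rank within its own list, the peak stood higher in Zeb1-CKO 2 at 318 regions (52.5%, interval 48.4% to 56.5%). These intervals cover counting error over regions of the same 2 libraries, not the spread between animals. Across the 606 regions the percentiles of Zeb1-CKO 2 and control 2 had a Spearman rank correlation of 0.38, given as a description of points that share both libraries.

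**Figure D2:**
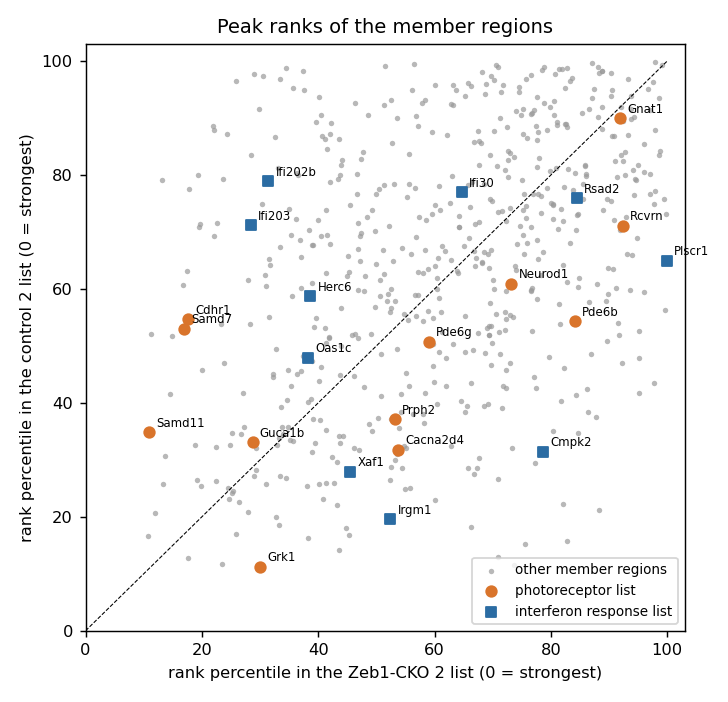
Each point is a replicate 2 region, all but 1 of the 606 being shown, by its rank percentile in the Zeb1-CKO 2 list (horizontal) and in the control 2 list (vertical), 0 being the strongest peak; the dashed line marks equal percentiles. Orange circles are photoreceptor genes and blue squares interferon-induced genes, spread over the range, with Samd11 near 10.9 in Zeb1-CKO 2 and Grk1 near 11.3 in control 2.

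The regions sat mostly on transcription starts. For 471 regions the strand of the neighbouring gene was given. Of these, 427 (90.7%) were within 1 kb of an annotated transcript start, and 44 were not. Not all of the 44 lay at a far end: at Mast3 and Kif2c, for example, the nearest gene end was on the start side. The share was 91.3% for Zeb1-CKO-only regions, 95.9% for those missing only from control 1 and 97.4% for those in all 4. The median region centre lay 2 bp upstream of the start (at -2 bp, quartiles -65.5 to 91.25 bp). A second gene lay within 1 kb of 75 regions, and 22 regions lay between the divergent starts of a gene pair. By chromosome, replicate 2 regions made up between 4.19% (chromosome 3) and 8.48% (chromosome 12) of the gene-end regions.

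**Figure D3:**
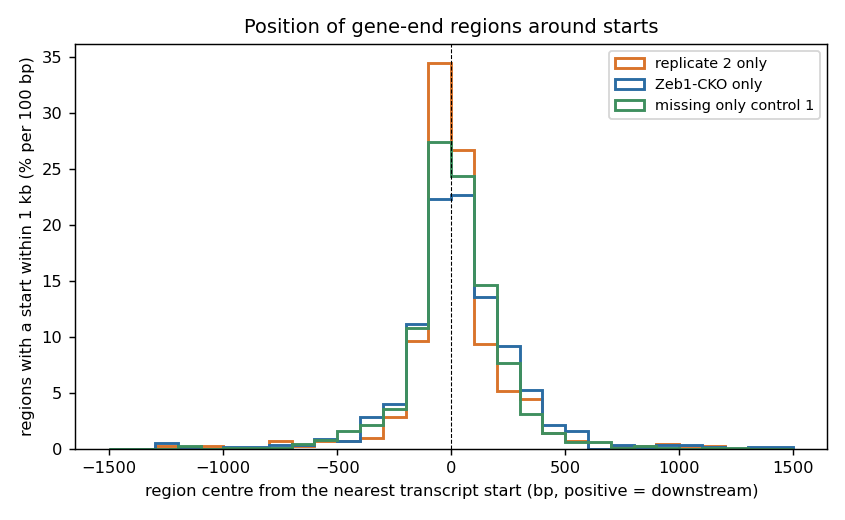
Distance from the nearest annotated transcription start to the centre of gene-end regions (horizontal axis, bp, positive downstream), as the percentage of regions in each 100 bp (vertical axis), for regions with a start within 1 kb. The replicate 2 regions (orange) peak at the start, with a median of -2 bp, beside Zeb1-CKO-only regions at 23.5 bp and those missing only from control 1 at 8 bp.

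The regions were chosen to hold no replicate 1 peak, so distances to the nearest such peak are a description, given without a comparison set. The nearest peak of either replicate 1 library was a median of 25462 bp away, 9 regions had one within 1 kb and 137 (22.6%) within 10 kb. Of the 680 genes, 610 had no gene-end peak in replicate 1, and 70 had one elsewhere at a gene end, 67 in Zeb1-CKO 1 and 32 in control 1. The count of 610 follows largely from how the regions were chosen. Another peak, apart from the region itself, lay in the gene or within 10 kb of it for 56.0% of the 680 genes in Zeb1-CKO 2, 45.3% in control 2, 46.5% in Zeb1-CKO 1 and 26.3% in control 1. For the 870 genes at Zeb1-CKO-only regions the shares were close, at 55.4% in Zeb1-CKO 2, 45.6% in control 2, 43.3% in Zeb1-CKO 1 and 23.8% in control 1.

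The regions were ranked by the weaker of their percentiles in Zeb1-CKO 2 and control 2. The first was at Nans, the sialic acid synthase, at chr4:46489101-46489438. Its peak covered 329 bp at percentile 10.7 and 8.51-fold enrichment in Zeb1-CKO 2, and 295 bp at percentile 16.6 and 7.35-fold in control 2. Cox10, an enzyme on the pathway to the heme A of cytochrome oxidase, followed at chr11:64079357-64079676, over its start. It had percentile 17.7 and 7.51-fold in Zeb1-CKO 2, and 12.8 and 8.19-fold in control 2, and the nearest replicate 1 peak was 156703 bp away. The third, Evl, encodes an actin regulator of the Ena/VASP family and was reached 689 bp beyond its far end.

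The next were Ei24, a membrane protein of the endoplasmic reticulum linked to autophagy, Fam149a, Rab4a, a GTPase of endosome recycling, Sf3a3, a splicing factor subunit, Fbxo3, an F-box protein, and the zinc-finger genes Zfp932 and Zfp101. Ei24 stood at percentile 23.4 in Zeb1-CKO 2 and 11.8 in control 2. Zfp101 stood at 13.4 in Zeb1-CKO 2 and 25.7 in control 2, with 8.33-fold and 6.66-fold enrichment. Naglu, a lysosomal enzyme of heparan sulfate breakdown, Metap1d, a mitochondrial aminopeptidase, Hs1bp3, Mak, a kinase of the photoreceptor cilium, and Dclre1c, the nuclease Artemis, completed the 15. Within these 15 the weaker percentile ran from 16.6 at Nans to 27.9 at Dclre1c, and Evl and Dclre1c also had a gene-end peak elsewhere in replicate 1.

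The widest regions showed how the merging works. At Tdrd7, a tudor-domain protein of RNA granules, a region of 1870 bp joined peaks of 897 bp in Zeb1-CKO 2 and 991 bp in control 2 that shared only 18 bp. Tmem204 had peaks of 1428 bp in Zeb1-CKO 2 and 1170 bp in control 2. At Whrn, the scaffold whirlin of sensory cells, Zeb1-CKO 2 covered 1480 bp and control 2 covered 285 bp. At the edge of the 1 kb rule, Tmem44 (986 bp from the gene end) and Tpbgl (981 bp) were just inside, with percentiles of 86.8 and 23.6 in Zeb1-CKO 2 and 48.5 and 79.4 in control 2. Trarg1 (1008 bp) and Fam178b (1010 bp) were just outside, at 30.7 and 72.0 in Zeb1-CKO 2 and 31.6 and 47.5 in control 2.

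Photoreceptor genes were frequent among the 680. Of 69 listed genes, 13 (18.8%) had a replicate 2 region, which was 34.2% of the 38 with a gene-end peak in any library, beside 3.14% and 6.48% over all genes. In all, 29 of the 69 had a gene-end peak in Zeb1-CKO 2, 33 in control 2, 12 in Zeb1-CKO 1 and 5 in control 1. None of the 13 had a gene-end peak in a replicate 1 library, and neither did 610 of all 680 genes. That follows largely from how the regions were chosen. The list was put together with the replicate 2 pattern of photoreceptor genes already known from these libraries, so its count is not independent support. In bulk libraries, more cells of a type and more open chromatin per cell cannot be told apart.

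The 13 included 3 genes of transcriptional control. Samd11, with Samd7 a sterile alpha motif protein of gene silencing in rods, had a region at chr4:156255286-156255793. Its peaks covered 445 bp with 8.48-fold enrichment (percentile 10.9) in Zeb1-CKO 2, and 488 bp with 6.00-fold (34.9) in control 2. At Samd7 the peaks covered 477 bp with 7.01-fold (16.9) in Zeb1-CKO 2, and 395 bp with 4.99-fold (53.0) in control 2, and the nearest replicate 1 peak was 46316 bp away. Neurod1, a basic helix-loop-helix factor of photoreceptors and other neurons, had weaker peaks, at percentile 73.2 in Zeb1-CKO 2 and 60.9 in control 2. Of the 12 listed transcription factor genes, 7 had a gene-end peak in Zeb1-CKO 2, 8 in control 2, 3 in Zeb1-CKO 1 and 1 in control 1. Crx itself had one in control 2 alone, Nrl had none at a gene end, and Otx2 had no peak within 10 kb in any list.

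Of the phototransduction genes, Grk1, a kinase that ends the light response, had the best-ranked region, at chr8:13404662-13405166. Its peaks covered 505 bp with 6.12-fold enrichment (30.0) in Zeb1-CKO 2, and 344 bp with 8.14-fold (11.3) in control 2, and no replicate 1 peak lay within 65692 bp. Guca1b, a calcium sensor of guanylate cyclase, stood at 28.7 in Zeb1-CKO 2 and 33.1 in control 2. The rod phosphodiesterase subunit genes Pde6g and Pde6b stood at 59.0 and 84.1 in Zeb1-CKO 2 and at 50.8 and 54.3 in control 2. The weakest were Gnat1, rod transducin alpha, at 92.0 in Zeb1-CKO 2 and 89.9 in control 2, and Rcvrn, the calcium sensor recoverin, at 92.4 in Zeb1-CKO 2 and 71.1 in control 2. Of the cone genes, Opn1sw, Opn1mw, Pde6c, Pde6h, Cnga3, Cngb3 and Arr3 had no gene-end peak in any library. Gnat2 had one in all 4, Gnb3 in all but control 1 and Gngt2 in both Zeb1-CKO libraries.

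Prph2 and Cdhr1 build the membrane discs of the outer segment. Cdhr1 stood at percentile 17.6 in Zeb1-CKO 2 and 54.7 in control 2, Prph2 at 53.2 in Zeb1-CKO 2 and 37.1 in control 2, and peaks of Zeb1-CKO 1 and control 1 lay 1758 and 1713 bp from the Prph2 region. Cacna2d4, a calcium channel subunit of the photoreceptor synapse, stood at 53.8 in Zeb1-CKO 2 and 31.8 in control 2. Counted in the gene and up to 10 kb beyond either end, the 13 genes held, replicate 2 regions included, 24 peaks in Zeb1-CKO 2, 26 in control 2, 3 in Zeb1-CKO 1 and 2 in control 1. For all 69 the numbers were 115, 112, 51 and 31 in the same order of libraries. By region pattern, 11 of the 69 photoreceptor genes had a gene-end region in control 2 alone and 6 in Zeb1-CKO 2 alone. Regions in both Zeb1-CKO libraries only were at 2. Of all 21631 genes, 340 had a region in control 2 alone, 1076 in Zeb1-CKO 2 alone and 870 in both Zeb1-CKO libraries only. Photoreceptor genes were thus also frequent at regions of control 2 alone. Regions in all libraries but control 1 were at 4 photoreceptor genes, in all 4 at 5, and in either replicate 1 library alone at 0. Over all genes these counts were 2806 and 4591, with 288 in Zeb1-CKO 1 alone and 74 in control 1 alone. A gene with regions of several patterns is counted under each.

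Interferon-induced genes were the other list with a high share, and this list was added after the values had been seen. Of 59 genes in the gene table, 10 (16.9%) had a replicate 2 region, which was 27.8% of those with any gene-end peak. Gene-end peaks were listed at 32 of them in Zeb1-CKO 2, 31 in control 2, 20 in Zeb1-CKO 1 and 4 in control 1. Another 14 had a region missing only from control 1, 4 one in all 4 libraries and 2 a Zeb1-CKO-only one. Of all 21631 genes, 2806 had a region missing only from control 1, 4591 one in all 4 and 870 a Zeb1-CKO-only one. The interferon list thus also had a higher share than all genes at regions missing only from control 1. All 10 regions lay at a start, beside 90.7% of all replicate 2 regions that could be placed. None of the 10 genes had a gene-end peak in replicate 1, and neither did 610 of all 680 genes, largely because of how the regions were chosen.

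Xaf1, an apoptosis regulator, had peaks of 5.32-fold enrichment (percentile 45.5) in Zeb1-CKO 2 and 6.45-fold (27.9) in control 2. Irgm1, an immunity-related GTPase, had 5.05-fold (52.4) in Zeb1-CKO 2 and 7.19-fold (19.6) in control 2. Cmpk2, a mitochondrial nucleotide kinase, and Rsad2, the antiviral enzyme viperin, are neighbours on chromosome 12. Cmpk2 stood at 78.7 in Zeb1-CKO 2 and 31.4 in control 2, and Rsad2, with a 200 bp peak in each, at 84.4 in Zeb1-CKO 2 and 76.0 in control 2. The others were Herc6, a ubiquitin-like ligase, Ifi30, a lysosomal thiol reductase, Plscr1, a phospholipid scramblase, Oas1c of the oligoadenylate synthetases, and Ifi203 and Ifi202b of the interferon-inducible DNA sensors. The last 3 belong to families with near copies, to which short reads may be assigned wrongly, and are uncertain for that reason. Plscr1 had the weakest peak of all 606 regions by percentile, at 99.95 in Zeb1-CKO 2, against 65.0 in control 2.

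**Figure D4:**
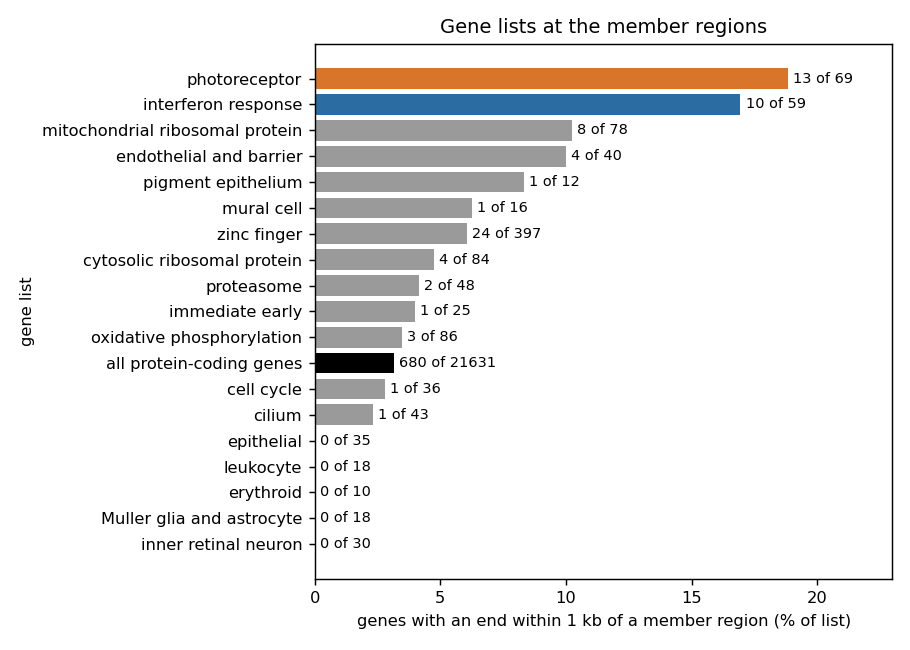
Percentage of each gene list with an end within 1 kb of a replicate 2 region (horizontal axis), with the number of genes beside each bar; the black bar is all protein-coding genes. Photoreceptor genes (13 of 69) and interferon-induced genes (10 of 59) have the longest bars, and 5 of the lists drawn, the epithelial genes among them, have none; olfactory receptors, also at 0, are not drawn.

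Lists of other cell types had 0 or 1 gene with a replicate 2 region. There was 1 at a mural cell gene (Myh11, smooth muscle myosin, 1 of 16 or 6.25%) and 1 at a pigment cell gene (Dct, a melanin enzyme, 1 of 12 or 8.33%), beside 3.14% of all genes. Each was 1 of 3 genes of its list with any gene-end peak (33.3%). Lists of inner retinal neurons (30 genes), Müller glia and astrocytes (18), leukocytes (18) and erythroid cells (10) had 0, and no erythroid gene had a gene-end peak in any library. The 18 leukocyte genes had gene-end peaks at 2 in Zeb1-CKO 2, 1 in control 2, 1 in Zeb1-CKO 1 and 2 in control 1. For the 30 inner neuron genes these counts were 5 in Zeb1-CKO 2, 1 in control 2, 2 in Zeb1-CKO 1 and 1 in control 1.

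Of 40 endothelial and barrier genes, 4 (10%) had a replicate 2 region, which was 16% of those with any gene-end peak, beside 3.14% and 6.48% over all genes. These were Plvap, which forms the diaphragms of fenestrae, Robo4, an endothelial guidance receptor, Eng, the TGF-beta co-receptor endoglin, and Ctnnb1, beta-catenin. Robo4 stood at percentile 67.5 in Zeb1-CKO 2 and 52.2 in control 2, and Eng at 89.6 in Zeb1-CKO 2 and 58.0 in control 2. At Ctnnb1 the region covered the far end, and the gene had gene-end peaks in all 4 libraries. Epithelial genes, which Zeb1 is known to repress, had 0 of 35 at replicate 2 regions and 15 at Zeb1-CKO-only regions, beside 870 of all 21631 genes at Zeb1-CKO-only regions, with gene-end peaks at 25 in Zeb1-CKO 2, 6 in control 2, 20 in Zeb1-CKO 1 and 3 in control 1.

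Broadly used gene families had shares between 3.49% and 10.3%, beside 3.14% of all genes. Among genes with any gene-end peak, the share over all genes was 6.48%. Oxidative phosphorylation subunits (4.55%), proteasome subunits (5.13%) and cytosolic ribosomal proteins (5.56%) lay below it. Zinc-finger genes (9.27%) and mitochondrial ribosomal protein genes lay above it. Mitochondrial ribosomal protein genes had 8 of 78 (10.3%, or 12.7% of those with any gene-end peak), among them Mrps21 and Mrpl42, and gene-end peaks at 62 in Zeb1-CKO 2, 49 in control 2, 47 in Zeb1-CKO 1 and 23 in control 1. Zinc-finger genes had 24 of 397, cytosolic ribosomal proteins 4 of 84, oxidative phosphorylation subunits 3 of 86 and proteasome subunits 2 of 48. Rpl14, a protein of the large ribosomal subunit, was the best ranked of these ribosomal genes, at percentile 33.6 in Zeb1-CKO 2 and 39.2 in control 2. The cilium list had 1 of 43 (Ttc8, a subunit of the BBSome), the cell cycle list 1 of 36 (Aurkb, a mitotic kinase) and the immediate early list 1 of 25. The last was Junb, a subunit of the transcription factor AP-1, reached at its far end, while its other gene-end peak was in all 4 libraries. Of 1110 olfactory receptor genes, 0 had a replicate 2 region, but only 2 had a gene-end peak in any library.

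**Figure D5:**
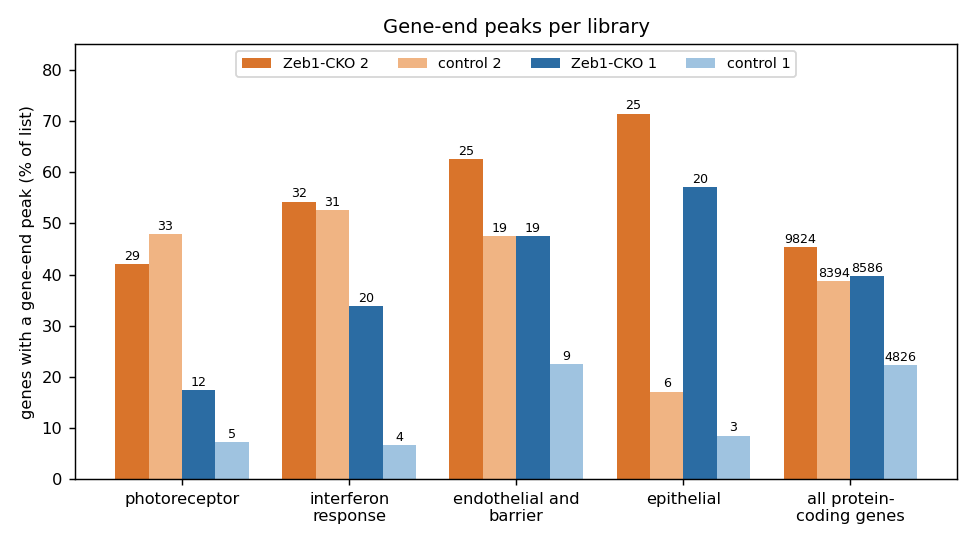
Percentage of each list (vertical axis) with a gene-end peak in Zeb1-CKO 2, control 2, Zeb1-CKO 1 and control 1 (bars from left to right), with the number of genes above each bar. Photoreceptor genes have 29, 33, 12 and 5, with the taller bars in both replicate 2 libraries, and epithelial genes have 25, 6, 20 and 3, with the taller bars in both Zeb1-CKO libraries.

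The promoters under the replicate 2 regions were less CpG-rich than those under the comparison sets. Of promoters in the RefSeq table (250 bases before to 50 after the start), 409 overlapped a replicate 2 region, with a median observed over expected CpG ratio of 0.736. The median was 0.772 for Zeb1-CKO-only regions, 0.818 for those missing only from control 1, 0.836 for those in all 4 and 0.573 for all 17274 promoters. The ratio was below 0.5 in 84 of the 409 (20.5%), against 16.5%, 7.40%, 4.65% and 45.3% in the same order. CpG-poor promoters among the replicate 2 regions included those of Grk1 (0.0885), Robo4 (0.106), Pde6b (0.204), Samd7 (0.220) and Rsad2 (0.291). Of 7 photoreceptor promoters in the table that overlapped a replicate 2 region, 6 were below 0.5. So were 39 of all 50 photoreceptor-list promoters in the table, so a low ratio was common in this list whatever the region.

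The CRX core was frequent in the CpG-poor promoters. TAATCC or GGATTA stood in 21 of the 84 (25%), against 4 of 86 (4.65%) for Zeb1-CKO-only regions, 13 of 137 (9.49%) for those missing only from control 1 and 703 of 7818 (8.99%) over all CpG-poor promoters. Without the photoreceptor and interferon lists it was 17 of 68, again 25%. Of those outside both lists, Fam149a, Trappc6b, Smim26 and Tmsb15b2 ranked highest. The endothelial gene Robo4, Ppef2, a phosphatase of photoreceptors, and Dct were also among them. These genes are named after their values were seen. Over all promoters whatever their CpG content, the share was 34 of 409 (8.31%), against 4.23%, 4.86% and 4.55% in the 3 comparison sets and 6.55% of all promoters. Of the 7 photoreceptor promoters under replicate 2 regions, 2 (28.6%) held it, against 18 of all 50 photoreceptor-list promoters in the table (36.0%). The CRX core was not the only motif above its share of all CpG-poor promoters. The comparisons below are CpG-poor promoters of Zeb1-CKO-only regions, those missing only from control 1, and all, in that order. The ETS site CCGGAAG stood in 15.5% of the 84, against 8.14%, 13.1% and 3.16%. The GC box GGGCGG stood in 35.7%, against 54.7%, 43.8% and 15.3%. The NRL letters stood in 22.6%, against 15.1%, 26 of 137 and 23.7%. The comparison of these shares was not tested, since the regions were chosen from the same lists.

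Other motifs were counted in the same promoters. The GC box GGGCGG stood in 61.4% of the 409, against 72.3% for Zeb1-CKO-only regions, 73.4% for those missing only from control 1, 78.1% for those in all 4 and 46.4% of all promoters. The ETS site CCGGAAG stood in 19.8%, against 19.2%, 23.7% and 20.5% in the comparison sets in that order and 2070 of all 17274 promoters. The NF-Y site CCAAT stood in 34.2%, against 27.9%, 36.1%, 51.1% and 39.3%, and the NRF1 site GCATGCGC in 4.89%, against 7.12%, 5.94%, 6.86% and 3.60%. The E2-box CAGGTG, which Zeb1 is known to bind, stood in 19.3% of the replicate 2 promoters, 27.3% of the Zeb1-CKO-only ones and 19.6% of all promoters. The NRL letters TGCTGA stood in 15.4% of the replicate 2 promoters, 12.5% of the Zeb1-CKO-only ones, 13.2% of those missing only from control 1, 12.5% of those in all 4 and 18.2% of all promoters, and in 4 of the 7 photoreceptor promoters under replicate 2 regions. The interferon core TTCNNTTTC stood in 3 of the 10 interferon-gene promoters under replicate 2 regions, 27 of all 48 in the table (56.3%), 6.60% of the 409 and 8.14% of all promoters. Each motif was counted once per promoter on either strand, and none of the strings contains another.

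The pattern was counted again with other peak thresholds. With the 7608 strongest peaks of each library, 282 gene-end regions had the replicate 2 pattern, 65 of the 606 (10.7%) were among them, and these regions lay at 5 photoreceptor and 4 interferon-induced genes. With a −log10 q of at least 3 required in every library the number was 632, of which 236 were among the 606. The parts of list length and of photoreceptor chromatin in the replicate 2 pattern were not tested.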

How the data were processed

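Peak lists of 4 ATAC-seq libraries were used, 2 Zeb1-CKO and 2 control, grouped by their titles. Per the submitters' processing notes, the build was mm10 and the tools included MACS2 2.1.1, Bowtie2 2.3.2, Trimmomatic 0.36, SAMtools 1.3, bedtools 2.26.0 and Picard 2.9.2; roles, settings, transposase shift and the filter behind the lists are not given in the sources used here. Each library has its own deposited list, not pooled. The authors deposited for every peak its fold enrichment, a ratio to background in that library, together with −log10 of the p-value and of the q-value. The deposited score equals 10 times −log10 q, capped at 1000. No deposited q-value exceeded 0.1. These values were used only to describe, rank and filter peaks within a list. A library held a region if a peak overlapped it. The lists give no read depth, so where no peak is listed the reads may have been too few.

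Gene ends, starts, strands and promoter sequences came from RefSeq tables (GRCm38.p6, the same assembly as mm10 on these chromosomes). Strands and starts were given for 17274 of 21631 protein-coding genes. Computation used Python 3.11.15, pandas 2.3.3, numpy 2.4.6 and scipy 1.17.1, and the functions were checked on simulated data (7 of 7 checks passed). Intervals are exact Clopper-Pearson intervals at 95%.

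The regions and gene lists were chosen with earlier results of these data known, and the interferon list of 62 genes (59 in the table) and its alternatives were added after seeing the data. The other 12 hand-written lists hold 353 genes, 352 of them in the table, and 6 families were taken by symbol. No region was tested: the lists chose the regions, and 2 libraries against 2 cannot give an exact two-sided permutation p under 0.333. The genes named were those at the 15 regions with the best weaker percentile, all photoreceptor genes with a region, up to 6 per other list, those at the 3 widest regions, and 2 just inside and 2 just outside 1 kb. Others are said to be named after their values were seen, or are the Zeb1 and endothelial checks. The values of 1 gene that the rule would name are not reported here.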

Additional observations from a re-analysis of the deposited data

How the results depend on the processing

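Alternatives changed the peak threshold, list length, overlap, merging distance, gene-end window (500 bp and 3 kb) and libraries. Of 73 alternative values, 46 stayed within 1.5 times the reported count or close to the reported share and 27 did not. With a −log10 q of at least 3 in every library, 95.2% of placeable regions lay at a start, 70.7% were wider in Zeb1-CKO 2 and 57.1% ranked higher there. With that threshold in the replicate 2 libraries alone, 236 regions, 264 genes and 4 interferon genes remained and 67.4% were wider in Zeb1-CKO 2. With lists of 7608 peaks there were 282 regions, 317 genes, 5 photoreceptor and 4 interferon genes, 94.7% at a start, 70.9% wider and 70.9% ranked higher in Zeb1-CKO 2. With at least 50% of a region covered, 58.1% ranked higher in Zeb1-CKO 2. The stricter thresholds also make shorter lists, and the causes of these changes were not tested.

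Leaving out 1 library loosens the rule, and gave 647 to 3017 regions, 723 to 3451 genes, 13 to 23 photoreceptor genes, 10 to 24 interferon genes, 85.1% to 94.9% at a start, 62.9% to 70.1% wider and 52.9% to 63.8% ranked higher in Zeb1-CKO 2. Without Zeb1-CKO 1 there were 3017 regions and 24 interferon genes, without control 2 1591 regions, and without Zeb1-CKO 2 917 regions and 23 photoreceptor genes. No paired analysis was possible because the results come from no test. Read depth, and how a missing peak depends on it, is unknown. With 2 libraries a group, no sample could be called an outlier.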

Other observations

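Peaks on the Y chromosome, which lie outside the regions described, numbered 13 in Zeb1-CKO 2, 3 in control 2, 22 in Zeb1-CKO 1 and 22 in control 1.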
